A study of Macaca mulatta with 5 samples.

Results

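Long noncoding RNAs (lncRNAs) that spread over at least 50 kb of genome were described in 2 cell types of the rhesus monkey (Macaca mulatta), embryonic stem cells (rESC) and the cells named R_NSCP1. Members were all listed lncRNAs on chromosomes 1 to 20 whose first and last base lay at least 50 kb apart and whose position was listed once only. They numbered 108 of the 1404 transcripts in the table, or 7.69%. Of 119 rows of that length on chromosomes 1 to 20, 10 were left out because they shared 5 repeated positions. A further 1 row was left out because it lay in the interval from 106500000 to 106900000 of chromosome 2, which the rule excludes together with 164600000 to 165000000 of chromosome 7. Another 9 rows of at least 50 kb on chromosome X and 2 on unplaced scaffolds were not members.

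The series, which concerns noncoding RNA and DNA methylation in neural fate, held 1 RNA library and 1 library of methylated DNA (MeDIP-seq, the sequencing of sheared DNA captured through its methylated bases) for each of the 2 cell types, and an input mixed from both that was not analysed here. The cell type field reads embryonic stem cell for both, and no label says what the name R_NSCP1 stands for or gives passage, treatment or time. The files carry no gene names, so neither cell type could be checked against marker genes. With 1 library per cell type and assay there are no replicates: no test was made, and every difference below is one between 2 libraries.

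lncRNAs are transcripts without a long open reading frame. Most are spliced, often expressed at low level and in few cell types, and some act on neighbouring genes in cis while others work elsewhere in the nucleus or in the cytoplasm. The genomic span of a spliced transcript includes its introns, so a long span does not mean a long RNA. The table gives no exons, and the transcript lengths of the members are unknown. A long gene also takes longer to transcribe, and genes of great length are known to be frequent among those expressed in neurons.

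The members spanned 51.2 to 438.2 kb, with a median of 90.9 kb and quartiles of 62.4 and 150.9 kb, against a median of 3.83 kb for the other 1296 lncRNAs. There were 57 members of 50 to 100 kb, 35 of 100 to 200 kb and 16 of 200 kb and over. The plus strand carried 60 and the minus strand 48. Every chromosome from 1 to 20 held at least 1, with the most on chromosome 1, which had 9, and 8 each on chromosomes 3, 7 and 9. As a share of the lncRNAs listed on a chromosome, members ran from 1.92% on chromosome 14, 1 of 52, to 14.7% on chromosome 12, 5 of 34.

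Close to the threshold, the 3 shortest members spanned 51.2 kb (chromosome 9, FPKM of 0 in rESC and 3.38 in R_NSCP1), 52.0 kb (chromosome 19, 41.7 and 14.5) and 52.8 kb (chromosome 3, 4.80 and 3.11). The 3 longest lncRNAs below it spanned 49.8 kb (chromosome 1, 1.23 and 1.95e-05), 48.71 kb (chromosome 6, 1.52 and 0.808) and 48.70 kb (chromosome 6, 0.000485 and 2.81). Values on both sides of the threshold thus go both ways. FPKM counts fragments per kilobase of transcript, scaled to library size, so levels can be compared between lncRNAs.

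In R_NSCP1 nearly all of the long-span lncRNAs were listed at a measurable level, whereas in rESC 23 of them were listed at 0. The FPKM of the 108 members had a median of 2.01 in rESC, with quartiles of 0.277 and 5.51 and a highest value of 138.5. In R_NSCP1 the median was 3.06, the quartiles 1.44 and 5.82 and the highest value 78.3. In rESC 23 members, 21.3%, were listed at 0, against 133 or 10.3% of the other lncRNAs. In R_NSCP1 it was 4 members, 3.70%, against 66 or 5.09% of the others. No member was listed at 0 in both. An FPKM of at least 1 was reached by 68 members in rESC and by 93 in R_NSCP1, with 54 members at that level in both, 39 in R_NSCP1 only, 14 in rESC only and 1 in neither.

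**Figure D1:**
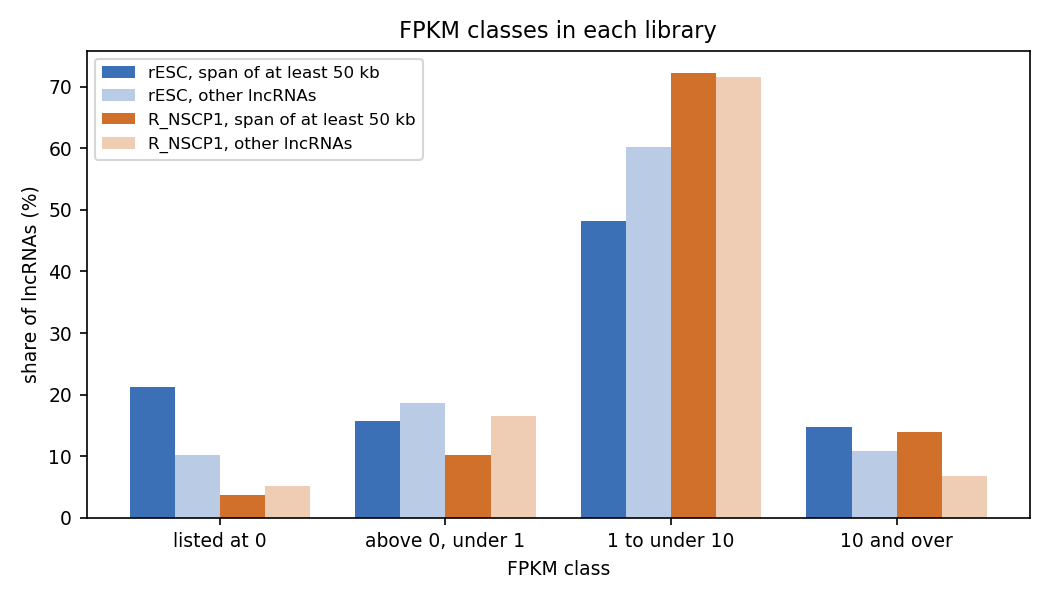
Share of lncRNAs in 4 classes of FPKM (x axis) in percent (y axis), for the 108 long-span lncRNAs in full colour and the 1296 other lncRNAs in pale colour, rESC in blue and R_NSCP1 in orange. In rESC 21.3% of long-span lncRNAs are listed at 0, against 10.3% of the others, while in R_NSCP1 the shares are 3.70% and 5.09%.

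Between the libraries, more long-span lncRNAs were higher in R_NSCP1 than in rESC. Of the 108, 47 or 43.5% were higher in R_NSCP1 by at least 2-fold in log2(FPKM + 0.1), and the same limit was passed by 34.7% of all 1395 lncRNAs that reached an FPKM of 0.1 in either library. At least 2-fold higher in rESC were 31 or 28.7%, against 30.8% of all lncRNAs, and 30 lay within 2-fold. All 108 members passed the filter on low values. The share higher in rESC was thus close to that of the whole table, and the share higher in R_NSCP1 was above it by 1.25 times. The median difference, R_NSCP1 minus rESC, was 0.74 over members, with quartiles of -1.22 and 3.03, and 0.06 over the other 1287 lncRNAs, with quartiles of -1.40 and 1.60.

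The surplus of long-span lncRNAs towards R_NSCP1 was not present among those with a value above 0 in both libraries. Of these 81, 24 or 29.6% were at least 2-fold higher in R_NSCP1 and 27 or 33.3% in rESC, with a median difference of -0.07. The other lncRNAs above 0 in both gave 28.4%, 30.5% and a median of -0.09. Leaving out values of 0 takes more from the R_NSCP1 side by construction, since 23 of the 47 members higher in R_NSCP1 were listed at 0 in rESC and 4 of the 31 higher in rESC were listed at 0 in R_NSCP1. Across the 81 members, Pearson's r between the log2 levels of the libraries was 0.317 and Spearman's rho 0.223, and across the 1100 other lncRNAs 0.295 and 0.256. These are correlations across transcripts that share 2 libraries, and overlapping transcripts are not independent. The 22 lncRNAs of at least 50 kb that were left out pool repeated positions, the excluded interval, chromosome X and unplaced scaffolds. As a pool they did not show the surplus. Of them, 7 were higher in R_NSCP1, 7 in rESC and 8 within 2-fold, with a median difference of 0.11. Keeping the rows with repeated positions as members gave 52 higher in R_NSCP1 and 35 in rESC, with a median of 0.74.

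**Figure D2:**
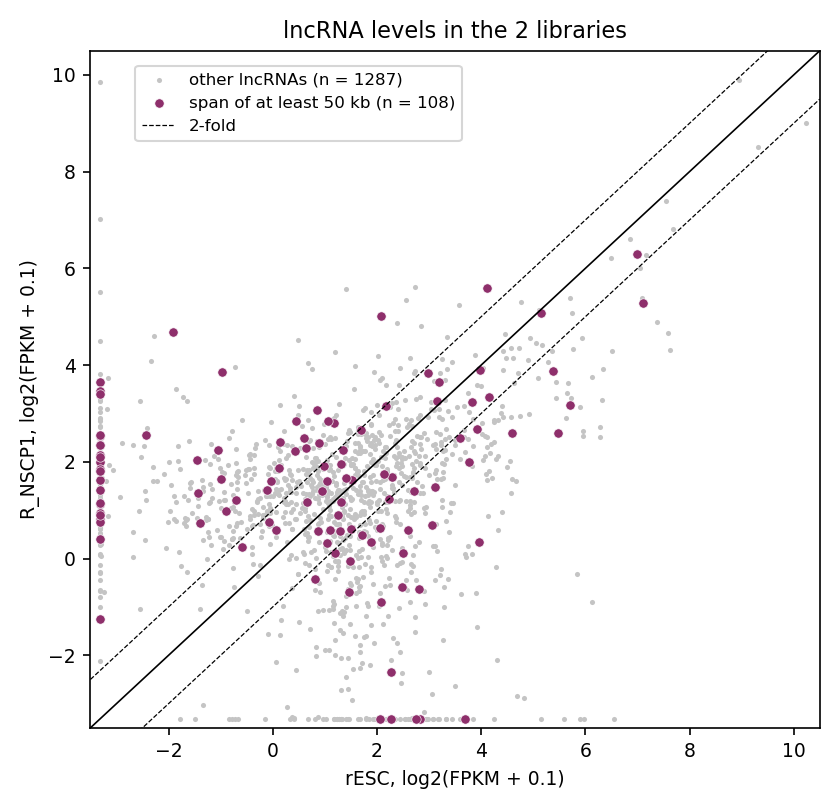
FPKM of each lncRNA in rESC (x axis) and R_NSCP1 (y axis), both as log2(FPKM + 0.1), with 108 long-span lncRNAs in purple and 1287 others in grey. The solid line marks equal levels and the dashed lines a 2-fold difference. The column of points at the left edge is the lncRNAs listed at 0 in rESC, which include 23 long-span lncRNAs.

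By length, the median difference was 0.26 for the 57 members of 50 to 100 kb, 0.66 for the 35 of 100 to 200 kb and 2.06 for the 16 of 200 kb and over. Of the 16 longest, 9 or 56.2% were at least 2-fold higher in R_NSCP1 and 2 or 12.5% in rESC, against the 34.7% and 30.8% of all lncRNAs, and 5 of them were listed at 0 in rESC and none in R_NSCP1. The classes overlapped widely, and across the 108 members Pearson's r between log2 span and difference was 0.082 and Spearman's rho 0.038. On the same chromosomes, lncRNAs of 1 to 50 kb were higher in R_NSCP1 in 34.8% and in rESC in 30.5%, with a median difference of 0.05 (n = 1032). Those under 1 kb gave 40% and 30%, with a median of 0.52 (n = 110). The difference therefore did not run in one direction with span over the whole table.

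**Figure D3:**
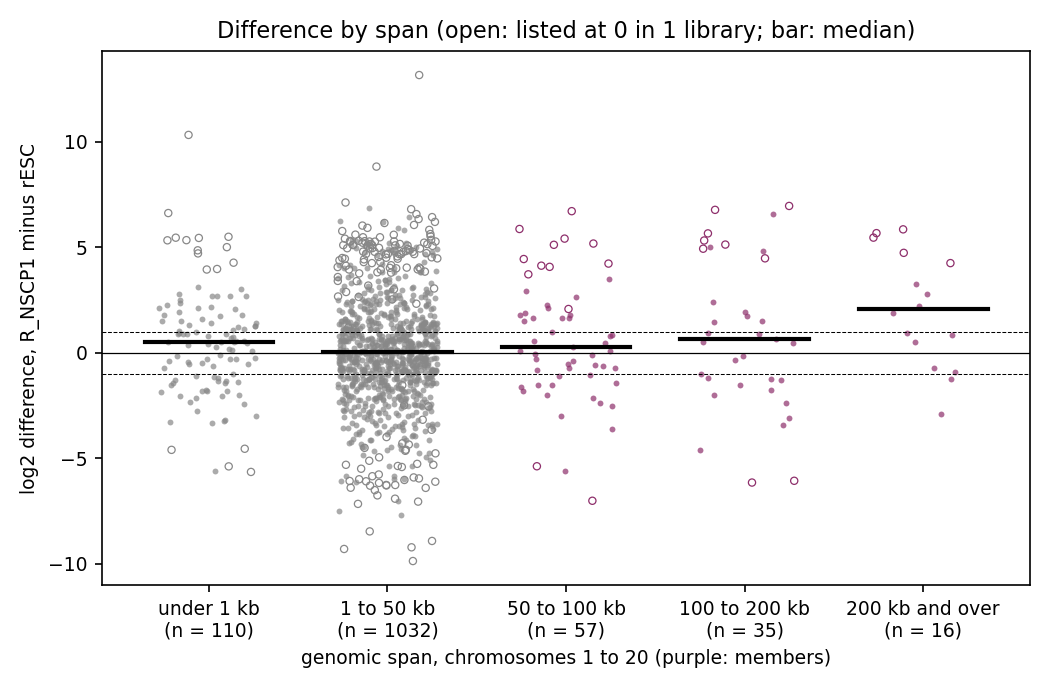
Difference in log2(FPKM + 0.1), R_NSCP1 minus rESC (y axis), of lncRNAs on chromosomes 1 to 20 by genomic span (x axis), with long-span members in purple, others in grey, open circles for lncRNAs listed at 0 in 1 library and a bar at each median. The medians of the 3 purple classes are 0.26, 0.66 and 2.06, and each class holds points on both sides of 0.

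The split between directions differed between the strands. On the minus strand 27 of 48 members, 56.2%, were at least 2-fold higher in R_NSCP1 and 10, 20.8%, in rESC, with a median difference of 1.64. On the plus strand it was 20 and 21 of 60, or 33.3% and 35%, with a median of 0.02. Of the members on the minus strand 14, or 29.2%, were listed at 0 in rESC, and of those on the plus strand 9, or 15.0%. Overlapping members count singly in these numbers. Of the 14 on the minus strand, 3 share the locus chr9:114827251-114881387, and others share loci on chromosomes 3 and 11. Those on the plus strand lie at separate loci. Among the other lncRNAs, 35.8% were higher in R_NSCP1 and 29.4% in rESC on the minus strand, and 32.0% and 32.5% on the plus strand, with medians of 0.06 and 0.05. Listed at 0 in rESC were 11.6% of the others on the minus strand and 8.92% on the plus strand. The sources used here do not say whether the authors' counting used the strand, and this split was chosen after the values were seen.

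The 23 long-span lncRNAs listed at 0 in rESC had R_NSCP1 levels from 0.322 to 12.4, with a median of 3.41, and 22 of them reached an FPKM of 1. Highest was a lncRNA of 148.9 kb on the plus strand of chr10:43431506-43580379, at 12.4 FPKM in R_NSCP1. Next came a transcript of 131.7 kb on chr14:30721113-30852788 at 10.9, also of the plus strand, and one of 60.0 kb, likewise, on chr7:1833820-1893851 at 10.4. None of these 3 overlapped another listed lncRNA of its strand, so no second transcript of the locus was listed at which expression in rESC could be read.

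At lower levels in R_NSCP1, the lncRNAs that also had 0 in rESC and stood alone on their strand lay on chr5:35939565-36004273 (FPKM 5.76), chr15:93917880-94141331 (5.69), chr3:133802298-134047169 (5.01) and chr8:68648312-68779429 (4.97), followed by chr2:34659339-34835972 (2.13) and chr15:67309961-67570398 (1.81). Of these, the members from 93917880 on chromosome 15 and from 133802298 on chromosome 3 span 223.5 and 244.9 kb. A minus-strand lncRNA at chr3:133576813-133660133 has its start 142.2 kb before that of the plus-strand member at chr3:133802298. This minus-strand lncRNA was present in both cell types, at 4.43 in rESC and 8.80 in R_NSCP1.

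An FPKM of 0 for a transcript did not always mean 0 for its locus. Of the 23 members listed at 0 in rESC, 14 overlapped another listed lncRNA on the same strand, and at 5 of them such a transcript stood above 0 in rESC. On chromosome 17 the member from 3779946 to 3838865 was listed at 0 in rESC and 1.22 in R_NSCP1, while a member that differs from it by its start alone, at 3838831, stood at 14.2 and 9.39. On chromosome 6 the member from 36491068 to 36563525 was listed at 0 and 0.322, and the summed FPKM of its locus was 9.86 in rESC and 4.94 in R_NSCP1. On chromosome 9 the member from 29753005 to 29825049 was listed at 0 and 1.78, with a locus sum of 2.71 and 2.81. In these 3 places the locus as a whole was not higher in R_NSCP1 by 2-fold. At the other 2, chr5:147584083-147734169 and chr20:70300622-70409636, it was: their loci summed to 0.982 and 3.94 in rESC against 6.999 and 9.56 in R_NSCP1. The other 18 members listed at 0 in rESC had a locus sum under 0.1 there.

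With a value above 0 in both libraries, the largest difference towards R_NSCP1 belonged to a lncRNA of 126.2 kb on the minus strand of chr2:107024523-107150705. Its FPKM was 0.166 in rESC against 25.5 in R_NSCP1, a log2 difference of 6.59, which was 4.51 with a pseudocount of 1 and 7.18 with 0.01. It lies beyond the end of the excluded interval of that chromosome, at 106900000. Also on the minus strand of chromosome 2, a lncRNA of 183.0 kb from 3882468 to 4065446 stood at 0.0848 and 5.79, a difference of 4.995.

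A lncRNA of 123.4 kb on the plus strand of chr9:10986449-11109829 measured 0.407 in rESC against 14.4 in R_NSCP1, a difference of 4.84. On the minus strand of chromosome 6, the lncRNA from 17477579 to 17534633 stood at 0.265 and 4.003. The one on the minus strand of chr10:2910381-3157197, of 246.8 kb, stood at 0.385 and 4.63. Well expressed in R_NSCP1 and also present in rESC was a lncRNA of 57.5 kb on the plus strand of chr6:99987768-100045268, at 4.11 and 32.4. Of these, the one on chromosome 2 at 107024523 was among the 10 largest differences when members at 0 were ranked too, and the others were listed after those at 0 had been set aside.

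Towards rESC the 10 largest differences ran from -7.01 to -2.98, against 6.96 to 5.42 for the 10 largest towards R_NSCP1, and fewer rested on a value of 0. Largest was that of a lncRNA of 65.1 kb on the minus strand of chr4:165983243-166048318, at 12.8 FPKM in rESC and listed at 0 in R_NSCP1. Its locus summed to 15.0 in rESC and 0.383 in R_NSCP1. A lncRNA of 122.3 kb on the plus strand of chr8:33709098-33831422 stood at 6.61 and 0, with no other listed transcript on its strand.

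The other 2 members listed at 0 in R_NSCP1 also each overlapped a transcript that was not at 0 there. The plus-strand member at chr16:58906797-59051275 had 7.01 in rESC against 0 in R_NSCP1, and the member from 58906785 to 59029062 had 0.986 and 3.55. Together they came to 7.99 in rESC and 3.55 in R_NSCP1. On the minus strand of chromosome 20 the member from 54287124 to 54376807 stood at 4.06 and 0, and the longer one with the same 3′ end, which runs to 54467141, at 3.58 and 1.18. Here both transcripts were lower in R_NSCP1, whereas on chromosome 16 they went in opposite directions.

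Members with less extreme values followed. A pair with the same 3′ end on the plus strand of chromosome 3 was lower in R_NSCP1 throughout: from 111832984 to 111894801 the FPKM was 15.5 in rESC and 1.16 in R_NSCP1, and from 111832516 it was 4.70 and 2.58e-05. No source used here says how reads were divided among such overlapping transcripts. A plus-strand lncRNA at chr18:12622609-12781239 stood at 4.71 and 0.0958, a difference of -4.62, and with its overlapping transcripts at 9.53 and 3.01, a difference of -1.63. The last of the 10 largest were on the plus strands of chr5:97442293-97560639 (6.90 and 0.548), chr19:21414675-21526655 (5.48 and 0.566) and chr4:83762082-83851794 (4.11 and 0.436).

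The most abundant long-span lncRNAs were present in both cell types. Highest in rESC was a lncRNA of 74.2 kb on the plus strand of chr6:51631250-51705445, with 138.5 FPKM in rESC against 39.0 in R_NSCP1, a difference of -1.82. A lncRNA of 60.1 kb on the plus strand of chr5:152942916-153003014 was second in rESC, at 127.3, and highest in R_NSCP1, at 78.3, a difference of -0.70. The plus-strand lncRNA at chr7:2792500-2883431 stood at 52.2 and 8.89.

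Also among the 5 highest of rESC were 2 members on plus strands, one of 232.3 kb on chr12:47328089-47560363, at 44.7 and 5.91, and one on chr19:13346240-13398214, at 41.7 and 14.5. In R_NSCP1 the second-highest value belonged to a lncRNA of 121.6 kb on the minus strand of chr10:69055416-69176977, at 17.2 in rESC and 47.9 in R_NSCP1, a difference of 1.48. The 5 highest members held 50.4% of the summed FPKM of all members in rESC and 35.03% in R_NSCP1. Members together held 7.197% of the summed FPKM of the table in rESC and 7.43% in R_NSCP1, close to their 7.69% of the rows.

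Among the 24 members that reached an FPKM of 10 in one library or both, 10 were at least 2-fold higher in rESC, 7 in R_NSCP1 and 7 lay within 2-fold. Of the 180 other lncRNAs at that level, 103 or 57.2% were higher in rESC and 35 or 19.4% in R_NSCP1, against 41.7% and 29.2% of members. The levels that define this class enter the difference too, and the libraries differ in spread.

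Some members that reached an FPKM of 5 in both libraries hardly differed. A plus-strand lncRNA at chr11:66846758-66909202 had 35.4 in rESC against 33.8 in R_NSCP1, which also put it among the 5 highest of R_NSCP1. One on the minus strand of chr15:43194728-43260393 stood at 15.7 and 14.9, and one on the plus strand of chr10:84932770-85004265 at 8.78 and 9.41. The differences of these 3 were at most 0.10 in size. The next were on chr3:15181998-15305847 (9.03 and 12.5) and the member of chromosome 17 ending at 3838831 (14.2 and 9.39).

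The longest members had moderate levels. The longest of all, 438.2 kb on the plus strand of chr4:21781764-22219915, measured 7.81 FPKM in rESC against 14.2 in R_NSCP1, within 2-fold. One of 296.1 kb on chr1:94801454-95097529 stood at 1.41 and 5.54, a difference of 1.90. Those of 278.7 kb on chr19:22838004-23116685 and of 266.7 kb on chr15:48765322-49032014 had 1.97 and 1.15, and 0.944 and 1.41. The fifth, of 260.4 kb on chr15:67309961-67570398, was listed at 0 in rESC and 1.81 in R_NSCP1. All 5 lie on plus strands. On chromosome 15 the member of 266.7 kb overlapped further transcripts, and its locus summed to 0.975 in rESC and 6.19 in R_NSCP1, a difference of 2.55 in place of 0.53.

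Overlap among the long-span lncRNAs was limited to a minority and was nearly always between transcripts of the same strand. Of the 108 members, 32 shared at least 1 bp with another member and 76 with none. They formed 22 overlapping pairs, 20 of the same strand and 2 of opposite strands. The 31 members in same-strand pairs made up 11 groups of 2 and 3 groups of 3, so that the 108 members stood for 91 separate loci. Together the spans summed to 12.9 Mb and covered 11.02 Mb. In each of the 20 same-strand pairs the overlap took up at least 96.8% of the shorter member, 9 pairs shared the 3′ end, 4 shared the start and 7 neither. Counting all listed lncRNAs, 51 members overlapped another transcript on their strand, 8 one on the opposite strand, and 54 none.

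Overlapping transcripts did not always differ in the same direction. Of the 20 same-strand pairs, both were higher in R_NSCP1 in 5, both higher in rESC in 6 and both within 2-fold in 3. In 3 pairs the members went in opposite directions past 2-fold, and in 3 pairs 1 member lay within 2-fold and the other did not. Members of a pair cover the same place and may share exons, so how the authors' software divided reads between them enters each value. With the FPKM of same-strand members summed, 40 of 91 loci, or 44.0%, were at least 2-fold higher in R_NSCP1, 24 or 26.4% in rESC, and the median difference was 0.66. With every listed lncRNA overlapping a member on its strand summed as well, 43 of the 108 members were higher in R_NSCP1 and 30 in rESC, and the median difference fell from 0.74 to 0.22.

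Of the groups of 3, one was higher in R_NSCP1 throughout and one lower throughout. On the minus strand of chromosome 9, 3 members between 114827251 and 114881387 were all listed at 0 in rESC and stood at 4.17, 3.53 and 3.38 in R_NSCP1. With a further overlapping transcript their locus summed to 13.8 in R_NSCP1 and 0 in rESC. On the minus strand of chromosome 13, 3 members between 110514294 and 110673539 were all lower in R_NSCP1, at 15.1, 13.5 and 8.61 in rESC against 6.35, 3.91 and 2.69.

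By contrast, 3 members on the plus strand of chromosome 12 with the same 3′ end at 51914992 differed among themselves. The longest, which starts at 51722509, stood at 4.63 in rESC and 2.23 in R_NSCP1, the one from 51724010 at 1.75 and 5.15, and the one from 51724689 at 8.22 and 1.52. Their sum was 14.6 in rESC and 8.90 in R_NSCP1, within 2-fold. The last 2 of these starts lie 679 bp apart and carried differences of opposite sign.

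Near one end of chromosome 9, members on both strands covered nearly the same place. Those on the plus strand ran from 418109 to 562392 and from 422766 to 566992, and the one on the minus strand from 421062 to 564628. All had low, like levels: 1.47 and 2.16, 2.39 and 2.16, and 2.37 and 3.80 in rESC and R_NSCP1. The library kit kept the strand, per the labels' protocols, but without knowing that the counting used it, reads of the 2 strands cannot be told apart here.

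**Figure D4:**
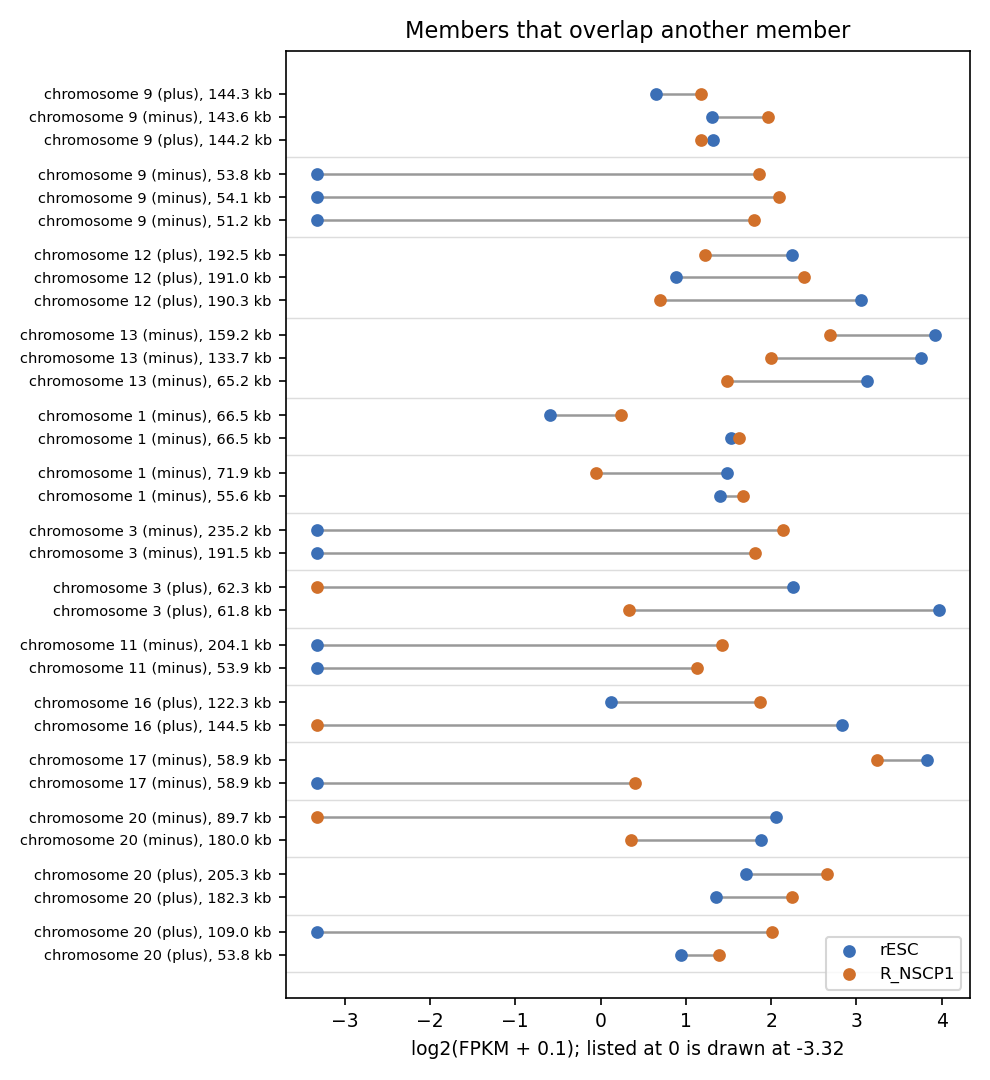
FPKM of the 32 long-span lncRNAs that overlap another, as log2(FPKM + 0.1) (x axis), in rESC (blue) and R_NSCP1 (orange), 1 row per transcript (y axis: chromosome, strand and span), with lines between the 14 groups. Points at the left edge are listed at 0, apart from 1 R_NSCP1 value of 2.58e-05 on chromosome 3. The chromosome 13 group is lower in R_NSCP1 in all 3 rows, and the rows of chromosomes 12 and 16 go both ways.

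Within 1 Mb of each other and without overlap lay 8 pairs of members, formed by 11 members on 3 chromosomes. On the plus strand of chromosome 7 the member from 1833820, listed at 0 in rESC, was followed after 898.6 kb by the abundant one from 2792500 (52.2 and 8.89) and, 158.2 kb beyond its end, by one from 3041643 to 3102401 at 0.280 and 1.58. On the plus strand of chromosome 20, members from 70035342 (3.15 and 6.22) and 70036928 (2.46 and 4.63) were followed after 60.0 kb by members from 70300622 (0 and 3.91) and 70355836 (1.82 and 2.52), all higher in R_NSCP1 though 3 of the 4 by under 2-fold. The limit of 1 Mb and these sets were chosen after the values were seen.

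In the authors' deposited table, 31 of the 108 members, 28.7%, were called up in R_NSCP1, against 16.0% of all lncRNAs, and 10 or 9.26% were called down, against 9.05%. Of the 31 up calls in the authors' deposited table, 22 carry a p-value of 0, and those are the 22 members listed at 0 in rESC with an FPKM of at least 1 in R_NSCP1. Members do not stand apart in this: over all lncRNAs of the authors' deposited table, 136 of 224 up calls carry such a p-value. Likewise 136 of the 224 were listed at 0 in rESC. Of the 4 members listed at 0 in R_NSCP1 the authors' deposited table calls 2 down, and of all 70 lncRNAs listed at 0 there it calls 25 down. The lncRNA of chromosome 8 at 6.61 and 0 is not called in the authors' deposited table, while that of chromosome 17 at 0 and 1.22 is.

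DNA methylation was read over the spans of the long-span lncRNAs from the MeDIP peaks of the same cell types, a measure the choice of members did not use. The merged spans of 11.02 Mb held 181 rESC peaks and 276 R_NSCP1 peaks, or 16.4 peaks per Mb (95% exact Poisson interval 14.1 to 19.0) and 25.1 (22.2 to 28.2). Chromosomes 1 to 20 outside the members held 16.2 and 28.3 peaks per Mb. R_NSCP1 had 1.52 times as many peaks as rESC in the members (95% exact binomial interval 1.26 to 1.85) and 1.74 times outside them, a value within that interval. These intervals cover counting error only. The spans of the other lncRNAs on the same chromosomes held 18.7 rESC peaks (15.8 to 21.9) and 34.4 R_NSCP1 peaks (30.5 to 38.7) per Mb, and for R_NSCP1 this interval does not meet that of the members. Nearer in length, other lncRNAs of 10 to 50 kb held 15.5 rESC peaks (11.9 to 19.8) and 31.0 R_NSCP1 peaks (25.8 to 36.8) per Mb. Both of these intervals meet those of the members.

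By member, 62 held more R_NSCP1 peaks, 12 more rESC peaks, 26 equal numbers above 0 and 8 no peak of either library. No such count is given here for other spans, and outside the members R_NSCP1 also had more peaks, by 1.74 times. Members that overlap count the same peaks again. A member held a median of 1 rESC peak and 2 R_NSCP1 peaks. A few members held many: the lncRNA on chr10:2910381-3157197 had 18 rESC and 21 R_NSCP1 peaks, and the 3 overlapping members near the end of chromosome 9 had 14 to 17 in each library. Without these 4 members, a choice made after the counts were seen, the remaining spans held 13.6 rESC peaks (11.4 to 16.0) and 22.2 R_NSCP1 peaks (19.5 to 25.2) per Mb. Leaving out the members with the most peaks lowers the density by construction. Peak-rich stretches outside the members were not left out, so these values cannot be set against the level there.

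Peak density was set against the direction of the RNA difference. Members higher in R_NSCP1 held 14.8 rESC and 23.6 R_NSCP1 peaks per Mb, members higher in rESC 12.6 and 20.6, and members within 2-fold, which include the group near the end of chromosome 9, 22.8 and 29.8. For rESC the interval of members within 2-fold, 17.7 to 28.9, does not meet that of members higher in rESC, 8.94 to 17.3, while for R_NSCP1 the intervals of all 3 classes overlap. Of the 69 rESC peaks in members within 2-fold, 17 lay in the member at chr9:418109-562392. Whether the intervals stay apart without that group was not tested. The R_NSCP1 to rESC ratios of these classes, 1.59 (1.197 to 2.13), 1.63 (1.07 to 2.51) and 1.30 (0.943 to 1.81), had overlapping intervals. Across the 108 members the difference in peaks per Mb and the difference in FPKM gave a Pearson's r of 0.0017 and a Spearman's rho of 0.036.

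**Figure D5:**
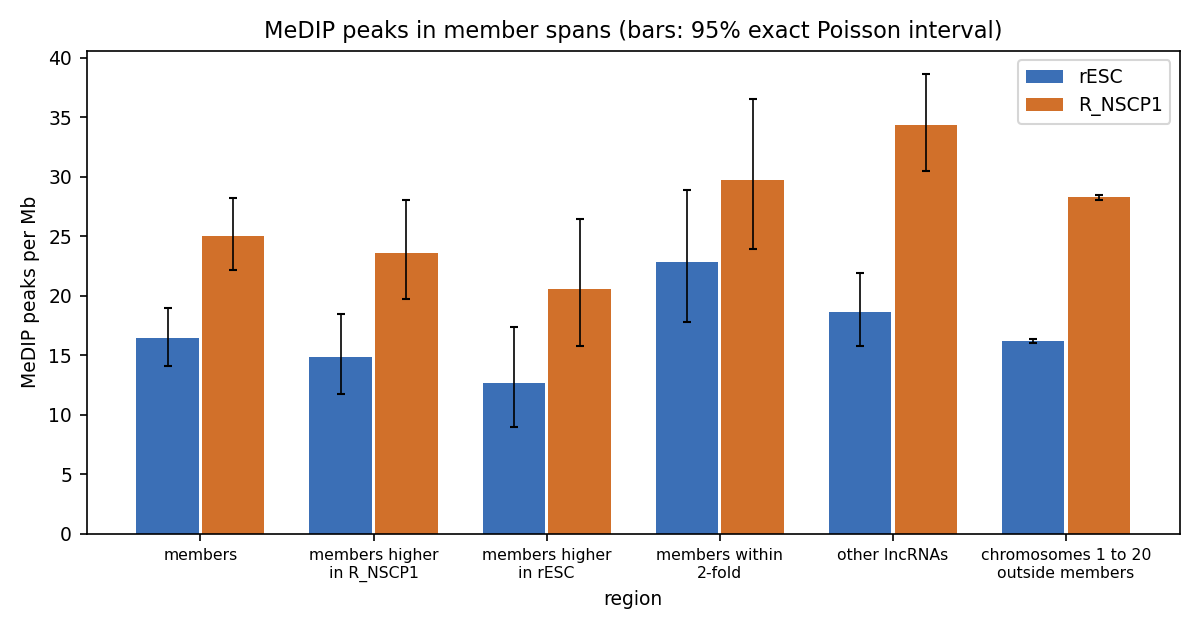
MeDIP peaks per Mb (y axis) in rESC (blue) and R_NSCP1 (orange) over the merged spans of long-span lncRNAs, of those in each direction, of other lncRNAs, and over chromosomes 1 to 20 outside the members (x axis). Error bars are 95% exact Poisson intervals, and R_NSCP1 stands above rESC in every region, by 1.52 times in the members and 1.74 times outside them.

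A peak near the start was rare. Within 1000 bp of the start, 3 members (2.78%) had an rESC peak and 7 (6.48%) an R_NSCP1 peak, against 5.56% and 10.1% of the other lncRNAs. The 3 with a peak in both lay on chr3:30363737-30598944 (0 and 4.31), chr7:1833820-1893851 (0 and 10.4) and chr9:418109-562392 (1.47 and 2.16). At the first 2 the peaks were weak, with a −log10 q of 4.24 to 7.68, and those of rESC and R_NSCP1 did not overlap. On chromosome 3 they lay at 30598365-30598613 in rESC and 30599775-30600010 in R_NSCP1. On chromosome 7 they lay at 1833401-1833649 in rESC and 1834653-1835133 in R_NSCP1. At the third, 4 peaks in each library overlapped those of the other and reached up to 33.9 in rESC and 35.6 in R_NSCP1.

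In R_NSCP1 only, a peak lay near the start of 4 members. Lower in R_NSCP1 were those of chr1:13208330-13265817 (12.01 and 5.51) and from 116640024 to 116702954 (2.19 and 0.989) and that of chr20:54287124-54376807 (4.06 and 0). Higher in R_NSCP1 was that of chr4:566174-620180 (1.25 and 4.58). Their peaks had a −log10 q of 4.78 to 5.67, and 101 members had no start peak in either library.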

How the data were processed

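The authors deposited levels in FPKM, per the file headers. The genome build and the ways in which transcripts were assembled, called noncoding, chosen and quantified are not given in the sources used here. Tools in the submitters' processing notes are TopHat2 2.0.11, BWA 0.7.7 and MACS2. The depth behind the FPKM values is unknown. For the p-values the authors deposited, no test is stated. Each MeDIP library had its peaks called alone with MACS 2.1.0.20150731, without a control, at a q cutoff of 0.01 and from 8690541 tags in rESC and 9071243 in R_NSCP1, per the file headers, which give −log10 q for each peak.

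Groups came from the sample titles. Differences are R_NSCP1 minus rESC in log2(FPKM + 0.1), computed here from the deposited FPKM for lncRNAs at 0.1 or more in one library or both; the pseudocount shrinks differences of weakly expressed lncRNAs. A value of 0 was not read as absence, and no fold is given against it. Overlap means at least 1 bp. A locus sum adds all listed lncRNAs of the strand that overlap a member. The table and the peak lists were assumed to share a build, since they share chromosome names. Positions are 1-based and were assigned to no gene. For peaks per Mb, a chromosome was taken to end at the last peak or lncRNA listed on it.

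Named were the 10 members with the largest difference in each direction that reached an FPKM of 1 in either library, the 5 highest of each library, the 5 longest, the 5 with the smallest difference at an FPKM of at least 5 in both, the 3 nearest the threshold on each side and the 3 largest overlapping groups, of which 4 tied. The members and these rules were chosen with earlier results of these data known. The difference step was tested on differences planted in lncRNAs at an FPKM of at least 1 in rESC, so lower levels in rESC were not covered. The overlap steps were tested on random positions. Python 3.11.15 was used with scipy 1.17.1, pandas 2.3.3, numpy 2.4.6 and, for figures, matplotlib 3.10.9.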

Additional observations from a re-analysis of the deposited data

How the results depend on the processing

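Restricting the comparison to lncRNAs above 0 in both libraries turned the median difference from 0.74 to -0.0663 over long-span lncRNAs and from 0.06 to -0.0941 over the others, and lowered the members higher in R_NSCP1 from 47 to 24, by construction, since more values of 0 stand in rESC. Centring on the median of all lncRNAs gave -0.0323 for the others. Scaling the libraries to equal summed FPKM gave the others 0.37, and scaling to equal upper quartiles 0.29; the long-span lncRNAs then stood at 1.05 and 0.97, with 54 members higher in R_NSCP1 under each and 24 or 27 in rESC. A span of at least 100 kb left 24 members higher in R_NSCP1 and 15 in rESC, and members that overlap no other listed lncRNA of their strand 27 and 14, both from fewer members. A 4-fold limit left 35 members higher in R_NSCP1 and 17 in rESC. A window of 5000 bp raised the members with a peak near the start from 7 to 26. With locus sums the members split into 43 higher in R_NSCP1 and 30 in rESC, with a median of 0.22. Locus sums, members overlapping no other lncRNA and both scalings were chosen after the data were seen. The remaining alternatives kept their direction and stayed within the limits set for each result. For the medians these limits were 95% intervals over transcripts, which are not replicates, so they measure no spread between libraries. They are wide, and the median of 0.22 with locus sums also lay within them. For counts the limit was a fixed fold, set without a test. No paired analysis was possible because each cell type has 1 library and the labels give no replicate numbers. Depth could not be weighed for FPKM.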
